A study of Mus musculus with 6 samples.

Results

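The cytosolic sulfotransferases described here are the products of 8 genes: Sult1a1, Sult1b1, Sult1c2, Sult1d1 and Sult1e1 of family 1, Sult2a8 of family 2, Sult3a1 of family 3 and Sult5a1 of family 5. They were taken by symbol from a liver expression table of 16135 genes, which lists 18 cytosolic sulfotransferase genes in all. The 8 were chosen by symbol with their FPKM in the 2 genotypes, from earlier results of the same table, in view. These values are therefore given as a description, without a test. The 6 libraries came from whole mouse liver, 3 labelled ACSS2-flox and 3 labelled ACSS2-HKO. ACSS2-flox mice carry a floxed Acss2 gene and served as the control. ACSS2-HKO mice lack ACSS2, the enzyme that makes acetyl-CoA from acetate, in hepatocytes. The labels used here do not name the Cre driver, the strain, the age or the sex. Both genotypes had received an ethanol-containing Lieber-Decarli liquid diet for 10 days and 1 ethanol binge, so no library shows a liver without alcohol. Whether the 3 libraries of each genotype are separate mice is not stated, so p-values measure only the spread between these libraries, which may be technical. The ACSS2-flox libraries are called controls 1 to 3 and the ACSS2-HKO libraries knockouts 1 to 3, after their replicate numbers.

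Cytosolic sulfotransferases move a sulfonate group from the donor PAPS onto hydroxyl or amine groups of hormones, bile acids, neurotransmitters, drugs and plant phenols. The product is more soluble in water and usually inactive, and sulfatases can release the parent compound again. The liver is rich in these enzymes, and in mice several of them, among them the Sult2a enzymes and Sult3a1, are known to be more abundant in females. Transcripts of Y-linked genes were near 0 in every library, with no value above 0.0162 FPKM for Ddx3y, Eif2s3y, Kdm5d and Uty. FPKM is a fragment count scaled to gene length and library total.

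Transcripts of 6 of the 8 genes read lower in ACSS2-HKO liver, on average, by 1.43-fold to 3.41-fold. The largest value was that of Sult5a1, where control 2 read 8.20 FPKM and the other controls 2.32 and 2.55 FPKM. Sult2a8, which sulfates bile acids, Sult3a1, an amine sulfotransferase, and Sult5a1, whose substrates are little known, had the lowest ratios of knockout to control mean, 0.307, 0.335 and 0.294. Sult1c2 stood at 0.488 of the control. The main phenol sulfotransferase gene Sult1a1 (0.90) and the estrogen sulfotransferase gene Sult1e1 (1.18) differed by less than the spread between libraries. For 4 of the 8 genes, Sult1c2, Sult1d1, Sult2a8 and Sult5a1, each knockout library read below each control library. That pattern was seen in 2.94% of the 9818 tested genes, those averaging 1 FPKM or more, and the opposite pattern in 12.5%. Without control 1 the first pattern was seen in 14.6%, but fewer libraries also separate more easily. Since the choice of the 8 genes used this contrast, nothing is read from the difference between these shares.

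Expression was compared on log2(FPKM + 1), and a log2 fold change is ACSS2-HKO minus ACSS2-flox with its standard error after ±. The added 1 makes the change of low genes smaller than the ratio of their FPKM means. A single high library also raises a mean of FPKM more than a mean of log2 values. The median log2 fold change of the 8 genes was -0.80 (-0.41 without both of the libraries that stood apart, control 1 and knockout 3), against 0.10 over all tested genes, and 7 of the 8 values were negative against 3335 of 9818. No gene of the table passed limma at a Benjamini-Hochberg adjusted p under 0.05 in either direction (0% higher and 0% lower), and the smallest adjusted p of any gene was 0.452. Without adjustment, limma gave p under 0.05 for 598 genes with higher means in the knockouts (6.09%) and 147 with lower ones (1.5%). These counts were 504 and 464 without control 1 and 267 and 74 without knockout 3. Genes with higher means made up 80.3% of them as deposited, 52.1% without control 1, 55.1% after median-ratio scaling and 52.3% after quantile normalization.

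The values implied library totals of 33717125 to 39474527 fragments. Control 1 and knockout 3 stood apart, at -47.7 and 27.6 on a first principal component that held 47.2% of the variance, with the other libraries between 2.51 and 8.49. Acss2 itself read 58.5 to 87.8 FPKM in the controls and 38.4 to 50.6 FPKM in the knockouts, over the whole gene and all liver cells. It did not pass the test (log2 difference -0.60 ± 0.21, limma adjusted p = 0.637). Its knockout mean was 0.648 of the control mean, and the log2 difference was -0.42 without control 1. These values alone do not show the loss of ACSS2 in hepatocytes. Hepatocyte markers were abundant in every library, with a summed level of at least 52301 FPKM over the 11 present. Control 1 gave the highest value of 7 of the 8 sulfotransferase genes, and knockout 3 the lowest value of 4.

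**Figure D1:**
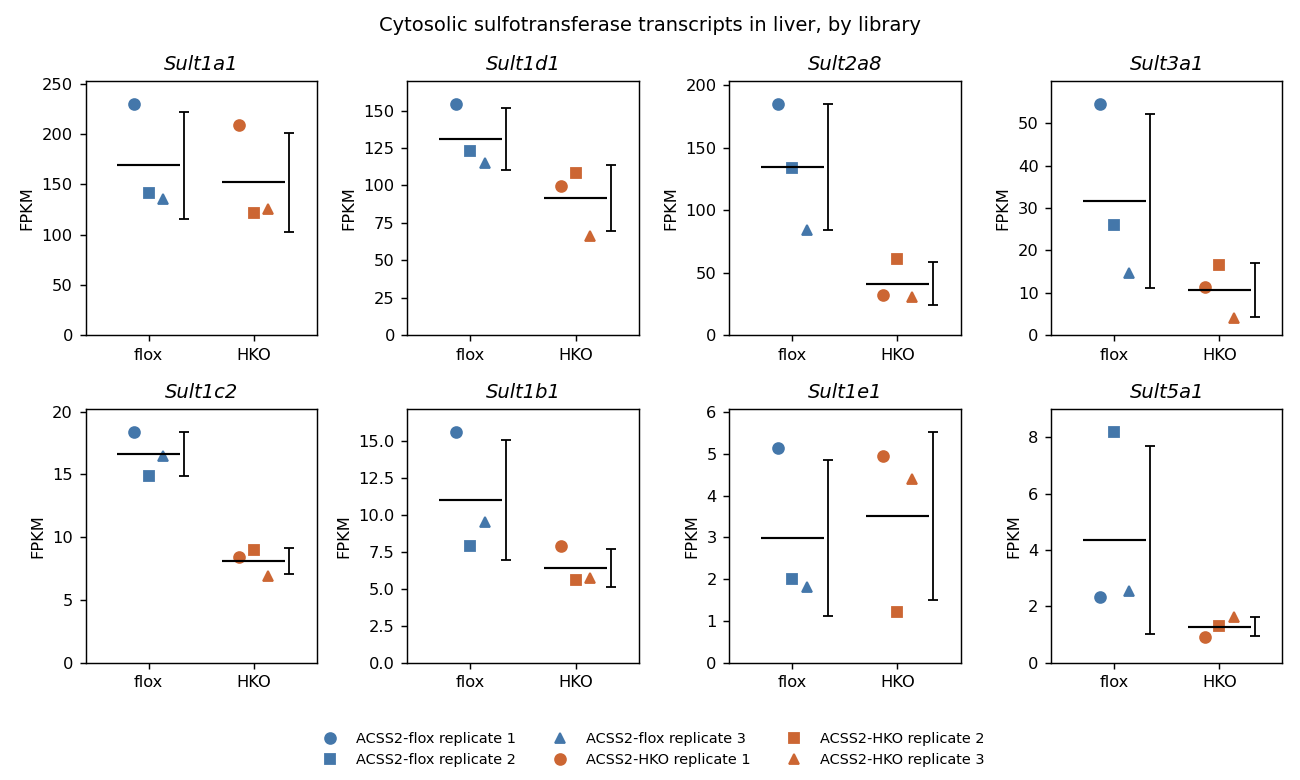
FPKM of the 8 sulfotransferase genes (one panel each, y axis from 0) in the 3 ACSS2-flox and 3 ACSS2-HKO libraries, where points are libraries, horizontal lines are group means and bars are the SD. The groups are separate for Sult1c2, Sult1d1, Sult2a8 and Sult5a1 and overlap for the other 4.

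The sequences before the RefSeq start sites are shown for 3 of the 4 genes whose genotype groups were separate. The sequence of Sult1a1, whose groups overlapped, is given too, so that both kinds can be set side by side. Each is the 250 bases before the RefSeq start of GRCm38.p6, 5′ to 3′ on the gene's strand. Capitals mark matches, on either strand, to any of 5 searched motifs: a nuclear receptor half-site (AGGTCA), a STAT site (TTCNNNGAA), an E-box (CACGTG), the core of the antioxidant response element (TGACNNNGC) and a TATA box (TATAAA). The windows lie at chr7:14446588-14446837, chr17:53845959-53846208, chr5:87569007-87569256 and chr7:126676419-126676668, all on the minus strand. RefSeq and GENCODE M21 place some starts differently, so the Sult1c2 window lies wholly inside the gene bounds that GENCODE gives, and 182 of the 250 bases of Sult2a8, 21 of Sult1d1 and 14 of Sult1a1 do.
Sult2a8: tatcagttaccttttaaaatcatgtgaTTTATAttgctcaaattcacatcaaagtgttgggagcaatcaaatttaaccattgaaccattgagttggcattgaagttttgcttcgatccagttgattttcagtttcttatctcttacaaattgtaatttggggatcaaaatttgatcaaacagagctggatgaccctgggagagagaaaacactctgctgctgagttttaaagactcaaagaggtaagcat
Sult1c2: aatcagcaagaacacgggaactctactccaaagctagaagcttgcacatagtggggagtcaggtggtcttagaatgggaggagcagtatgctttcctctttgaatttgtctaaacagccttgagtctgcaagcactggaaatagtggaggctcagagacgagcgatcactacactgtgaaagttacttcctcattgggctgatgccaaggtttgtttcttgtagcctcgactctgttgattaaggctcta
Sult1d1: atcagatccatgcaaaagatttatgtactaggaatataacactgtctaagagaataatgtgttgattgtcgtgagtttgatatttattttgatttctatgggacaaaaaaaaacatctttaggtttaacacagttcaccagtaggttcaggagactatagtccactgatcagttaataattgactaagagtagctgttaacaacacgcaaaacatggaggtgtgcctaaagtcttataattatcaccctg
Sult1a1: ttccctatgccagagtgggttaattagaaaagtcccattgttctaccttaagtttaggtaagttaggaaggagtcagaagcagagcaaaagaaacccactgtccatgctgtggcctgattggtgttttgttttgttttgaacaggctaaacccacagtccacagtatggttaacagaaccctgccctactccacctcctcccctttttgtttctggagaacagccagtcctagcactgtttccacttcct
The nuclear receptor half-site occurred in Sult1b1 and Sult1e1, 2 of the 8 genes, and in 14.0% of 32851 RefSeq promoter windows of the same length. None of the motifs matched in Sult1c2, Sult1d1, Sult5a1 or Sult1a1. The STAT motif was found in Sult3a1 (7.02% of all windows) and TATAAA in Sult2a8 (12.4%), there at -223 from the start and on the reverse strand. The E-box and the antioxidant core, found in 6.02% and 10.2% of all windows, were in none of the 8. No motif was shared by the 4 genes whose groups were separate. A match is only a run of letters in this window, and the absence of one says nothing about binding.

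Sult2a8 belongs to the hydroxysteroid sulfotransferases, the family that sulfates bile acids and DHEA. The gene (gene ID 76971) lies on chromosome 7 of GRCm38 (14410686 to 14446769, minus strand), in a cluster of 8 Sult2a genes spread over 870.3 kb. Its FPKM was 184.9, 133.9 and 84.2 in controls 1, 2 and 3 and 32.1, 61.2 and 30.6 in knockouts 1, 2 and 3. The groups did not overlap, and even the lowest control library lay above the highest knockout library. The means were 134.4 ± 50.3 and 41.3 ± 17.2 FPKM (SD, n = 3), and the log2 fold change was -1.68 ± 0.35. With 1 library left out it ran from -1.99 to -1.41, and without both distant libraries it was -1.24. Sult2a8 took 27.8%, 29.3% and 22.2% of the summed FPKM of the 8 genes in the controls and 8.58%, 18.8% and 12.5% in the knockouts. This share is taken within a library, so it does not depend on how libraries were scaled to each other.

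Sult3a1 transfers sulfonate to amines and, in mouse liver, is known as a strongly female-biased gene. It lies on chromosome 10 (33857721 to 33879532, plus strand, gene ID 57430). It read 54.5, 25.9 and 14.6 FPKM in the controls and 11.3, 16.5 and 3.97 FPKM in the knockouts. The groups overlapped, because knockout 2 read above control 3. The means were 31.6 ± 20.6 and 10.6 ± 6.31 FPKM (SD, n = 3), with a log2 fold change of -1.48 ± 0.55. Of the 8 genes it varied over the widest range, 13.7-fold from the lowest to the highest library. Its fold change was smaller without the distant libraries: it was -1.0 without control 1, -0.96 without knockout 3 and -0.48 without both.

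Family 1 enzymes act mainly on phenols. Sult1c2 (chromosome 17, 53829637 to 53846339, minus strand, gene ID 69083) had the tightest groups of the 8 genes. It read 18.4, 14.9 and 16.5 FPKM in the controls and 8.44, 8.95 and 6.90 FPKM in the knockouts. All 3 knockout libraries were thus close to one another and well below the controls. The means were 16.6 ± 1.76 and 8.10 ± 1.07 FPKM (SD, n = 3), and the log2 fold change of -0.95 ± 0.18 stayed between -1.03 and -0.86 with 1 library left out. Without both distant libraries it was -0.78.

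Sult1d1, which acts on dopamine and other catechols in mice, was the second most abundant of the 8. Its FPKM was 154.3, 123.0 and 115.0 in the controls and 99.8, 108.6 and 66.4 in the knockouts. The groups were separate by a small margin, with knockout 3 well below the other 2 knockout libraries. The means of 130.8 ± 20.8 and 91.6 ± 22.3 FPKM (SD, n = 3) gave a log2 fold change of -0.53 ± 0.23. It was -0.31 without knockout 3 and -0.19 without both distant libraries.

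Sult1b1, which sulfates thyroid hormones and phenols, read 15.6, 7.86 and 9.50 FPKM in the controls and 7.90, 5.59 and 5.74 FPKM in the knockouts. The groups touched, since knockout 1 read just above control 2. The log2 fold change was -0.66 ± 0.26, and -0.39 without control 1, the highest library. After rescaling to TPM, by median ratios or by quantiles the 2 groups of Sult1b1 no longer overlapped.

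Sult1a1, the broad phenol sulfotransferase that handles drugs such as paracetamol, had the highest level of the 8 in all 6 libraries. It read 230.0, 141.4 and 135.6 FPKM in the controls and 209.3, 121.6 and 125.5 FPKM in the knockouts. Replicate 1 of each genotype was high and the other 4 libraries lay close together, so the groups overlapped. The means were 169.0 ± 52.9 and 152.1 ± 49.5 FPKM (SD, n = 3), and the log2 fold change, -0.15 ± 0.29, was 0.09 without control 1. Sult1a1 made up 55.9%, 37.4% and 51.2% of the summed FPKM of the 8 genes in the knockouts, against 34.6%, 30.9% and 35.7% in the controls. The length inferred from the values, on the assumption of whole fragments, was 4269 bases, against 1507 bases of exon in GENCODE M21. If the authors divided by that length, its FPKM may be low relative to the other genes. It also overlaps Sgf29 on the opposite strand, and whether counting used strand is not given in the sources used here.

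Sult1e1 inactivates estrogens by sulfation, and its liver level is known to vary with inflammation and metabolic state. It read 5.15, 2.01 and 1.82 FPKM in the controls and 4.94, 1.22 and 4.40 FPKM in the knockouts. High values came from 1 control and 2 knockout libraries, and low values from the other 3, so the levels did not follow genotype. The log2 fold change of 0.15 ± 0.43 ran from -0.11 to 0.60 with 1 library left out. Sult1e1, Sult1d1 and Sult1b1 lie side by side on chromosome 5 (87513339 to 87591594, 78.3 kb), yet Sult1e1 alone of the 3 had a positive fold change.

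Sult5a1 (chromosome 8, 123140192 to 123158315, minus strand, gene ID 57429) is a mouse sulfotransferase of little-known function. It read 2.32, 8.20 and 2.55 FPKM in the controls and 0.928, 1.30 and 1.61 FPKM in the knockouts. All knockout libraries were below all controls, and control 2 was far above the other controls. The log2 fold change was -1.08 ± 0.37, and -0.60 without control 2. With an added value of 0.1 or 5 in place of 1 it was -1.48 or -0.52. Fragments for Sult5a1 numbered 50 to 465 per library, and the lowest count has an exact Poisson 95% interval of 37.1 to 65.9, which covers counting error only. Sult1e1 had 55 to 220 fragments, and the lowest count of each of the other 6 genes was 185 or more. Sult5a1 overlaps Gm20388, an annotated protein-coding gene on the opposite strand, so its fragments share that uncertainty.

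**Figure D2:**
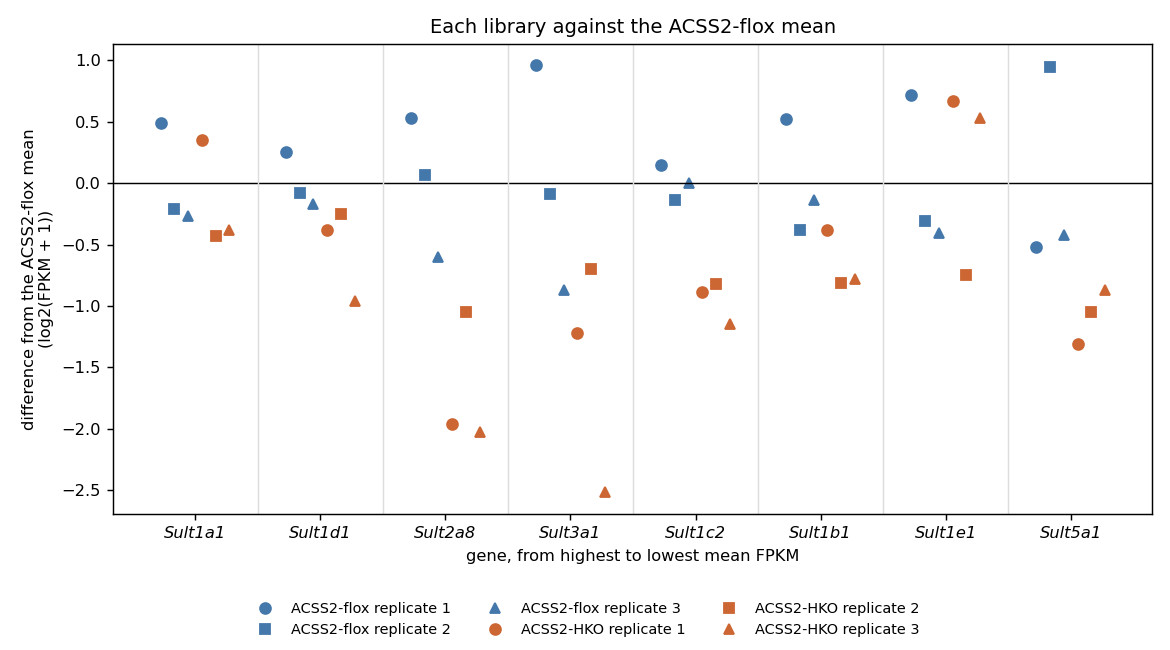
Difference of each library from the ACSS2-flox mean on log2(FPKM + 1), for the 8 genes from the highest to the lowest mean FPKM (points are libraries). ACSS2-flox replicate 1 is at the top for 7 genes, and ACSS2-HKO replicate 3 reaches -2.52 for Sult3a1 and -2.03 for Sult2a8.

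The order of the levels, in FPKM over the 6 libraries, was Sult1a1 (mean 160.6), Sult1d1 (111.2), Sult2a8 (87.8), Sult3a1 (21.1), Sult1c2 (12.3), Sult1b1 (8.70), Sult1e1 (3.26) and Sult5a1 (2.82). Within libraries, Sult1a1 was above Sult1d1 in 6 of 6, Sult2a8 above Sult3a1 in 6 of 6, Sult1c2 above Sult1b1 in 6 of 6 and Sult1b1 above Sult1e1 in 6 of 6. The neighbours Sult1d1 and Sult2a8, Sult3a1 and Sult1c2 (4 of 6 libraries each) and Sult1e1 and Sult5a1 (3 of 6) did not keep one order. Sult2a8 read above Sult1d1 in controls 1 and 2 only. The order depends on the gene lengths behind the FPKM. The length inferred from the values was above the GENCODE M21 exon total for Sult1a1 (4269 against 1507 bases). It was below that total for Sult5a1 (1524 against 4419), Sult2a8 (2526 against 3284) and Sult1c2 (1465 against 1846). The summed FPKM of the 8 genes was 665.1, 457.2 and 379.8 in the controls and 374.6, 325.0 and 245.2 in the knockouts, so the groups were separate by a narrow margin.

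**Figure D3:**
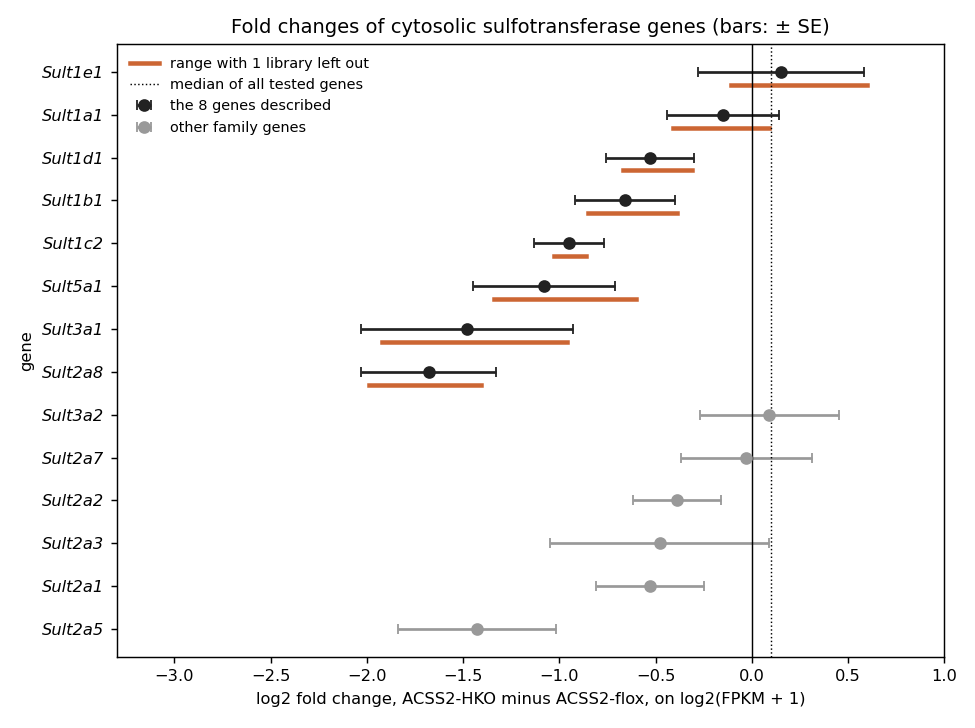
Log2 fold change (x axis, ACSS2-HKO minus ACSS2-flox on log2(FPKM + 1)) of the 8 genes and of 6 other tested family genes, with bars for the standard error and, for the 8 genes, orange lines for the range with 1 library left out. Sult2a8 (-1.68), Sult3a1 (-1.48) and Sult2a5 (-1.43) lie farthest to the left, and Sult1e1 (0.15) and Sult3a2 (0.09) to the right of 0.

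Coding sequences of the 8 genes are well separated, which bears on how fragments were assigned. Among the 8, identity to the closest other member ran from 55.9% (Sult5a1 and Sult1b1) to 63.6% (Sult1d1 and Sult1e1). Outside the 8, Sult3a1 has the near copy Sult3a2 (90.9% identical) and Sult2a8 is 69.8% identical to Sult2a5. No stretch of 100 bases in a GENCODE M21 protein-coding transcript of any of the 8 occurs in another of the 18 genes. Such stretches made up 34.6% of Sult2a2, 16.6% of Sult2a5, 11.4% of Sult2a1 and 5.76% of Sult2a4, so fragments may have been divided among those 4 genes in an uncertain way.

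The 10 other cytosolic sulfotransferase genes held most of the family's transcripts. Sult2a1 and Sult2a2, the classical hydroxysteroid sulfotransferases of female mouse liver, made up 66.8% to 73.0% of the summed FPKM of all 18 genes. Sult2a2 read 825.1, 589.7 and 600.1 FPKM in the controls and 571.8, 541.1 and 421.4 FPKM in the knockouts. Sult2a5 read 26.1, 14.8 and 10.7 FPKM in the controls and 4.89, 9.83 and 3.0 FPKM in the knockouts. In both genes all knockout libraries lay below all controls, but neither passed limma (log2 fold changes of -0.39 ± 0.23 and -1.43 ± 0.41, adjusted p = 0.697 and 0.607). Without both distant libraries these were -0.10 and -0.77. Sult2a1 overlapped between the genotypes (-0.53 ± 0.28, limma adjusted p = 0.675), and was at -0.31 without control 1 and -0.35 without knockout 3. Sult2a3 (-0.48 ± 0.57), Sult2a7 (-0.03 ± 0.34) and Sult3a2 (0.09 ± 0.36) overlapped too, with limma adjusted p of 0.863, 0.988 and 0.962. Without knockout 3 they stood at 0.28, -0.40 and 0.55, so that Sult2a3 changed sign. With single libraries left out Sult2a3 ranged from -1.05 to 0.28, Sult2a7 from -0.40 to 0.29 and Sult3a2 from -0.20 to 0.55. Sult3a2 read 2.24 and 1.79 FPKM in knockouts 1 and 2, 0.964 to 1.16 FPKM in the controls and 0.138 FPKM in knockout 3. The last value rests on 5 fragments. Knockout 3 was lowest for the near copy Sult3a1 too. Knockouts 1 and 2 stood above every control for Sult3a2 but not for Sult3a1. Sult2a4, Sult2a6, Sult2b1 and Sult4a1 had means under 1 FPKM and were not tested. The other 6 tested genes had a median log2 fold change of -0.44, which was -0.27 without control 1, -0.30 without knockout 3 and -0.11 without both. Of the 6, 2 were separate between the groups and lower (2.94% of all tested genes) and 0 passed the test. The difference between the 8 genes and these 6 was not tested.

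PAPS, the sulfonate donor, is made by the synthases PAPSS1 and PAPSS2 from sulfate that liver cells import or form from cysteine. Of the 18 genes of this supply in the data, 16 were tested, 0 passed limma in either direction, and the median log2 fold change was 0.01 (0.08 without control 1). Papss2, the main synthase gene of liver, read 113.5, 59.9 and 68.0 FPKM in the controls and 65.1, 42.6 and 41.0 FPKM in the knockouts. The groups overlapped, and the log2 fold change of -0.66 ± 0.29 (limma adjusted p = 0.649) was -0.39 without control 1. Papss1 was higher in each knockout library than in any control but low (3.15 ± 0.27 and 4.25 ± 0.53 FPKM, SD, n = 3), and differed by 0.34 ± 0.17 on the log2 scale (limma adjusted p = 0.670). Suox, the sulfite oxidase that forms sulfate, read 44.7 ± 8.17 and 61.5 ± 7.27 FPKM (SD, n = 3), with a limma adjusted p of 0.649.

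Enzymes that remove or place sulfate elsewhere in the cell did not pass the test either. Of 12 tested sulfatases and sulfatase-modifying genes 11 had positive fold changes (median 0.35), with Arsg at 0.51 ± 0.19 and the heparan sulfatase gene Sgsh at 0.50 ± 0.19 (limma adjusted p = 0.637 for each, 0 of 12 called). Of 27 Golgi sulfotransferases in the data, which sulfate sugars and proteins rather than small molecules, 9 were tested. Of these 9, 6 were positive (median 0.34). Over all tested genes 6483 of 9818 were positive, a share near that of the Golgi list. Chst13 stood at 0.73 ± 0.21 and Ndst2 at 0.34 ± 0.17 (limma adjusted p = 0.607 and 0.670, 0 of 9 called). Control and knockout means were 1.90 and 3.16 FPKM for Arsg, 1.39 and 2.41 for Sgsh and 1.32 and 2.92 for Chst13. These levels are near the filter of 1 FPKM, so their changes depend on the added value. That of Chst13 was 1.05 with 0.1 and 0.32 with 5 in place of 1. Control 1 was the lowest library for the medians of both lists, and without it they were 0.22 and 0.09.

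Nuclear receptors such as CAR (Nr1i3) and PXR are known to induce several Sult genes. Of 22 tested receptors and regulators 0 passed limma, and their median log2 fold change was -0.02 (-0.21 without control 1). Nr1i3 read 56.3 ± 15.0 FPKM in the controls and 38.1 ± 5.35 FPKM in the knockouts (SD, n = 3), and the groups overlapped (log2 difference -0.53 ± 0.23, limma adjusted p = 0.649, and -0.33 without control 1). Of 24 CAR and PXR target genes 0 passed (median 0.07, and -0.15 without control 1), and the members of smallest p were the organic anion transporter gene Slco1a4 (-0.95 ± 0.27, limma adjusted p = 0.607) and the carboxylesterase gene Ces2a (-0.64 ± 0.20, limma adjusted p = 0.637).

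Transporters and hormone enzymes that share substrates with sulfotransferases had 0 calls among 10 and 19 tested genes, with median log2 fold changes of 0.02 and -0.20. Without control 1 these medians were -0.24 and -0.10, and without both distant libraries -0.12 and -0.02. The efflux pump gene Abcc3, whose product exports conjugates into blood, read 26.4 ± 6.94 and 46.0 ± 13.4 FPKM (SD, n = 3), with a limma adjusted p of 0.637. Hsd3b2 and Hsd17b6 of steroid metabolism had log2 fold changes of -0.58 ± 0.26 and -0.56 ± 0.27 (limma adjusted p = 0.649 and 0.668), which were -0.36 and -0.30 without control 1. Female-biased liver genes had a median of -0.51, with 13 of 15 negative (against 3335 of 9818 tested genes) and 0 called. Hao2 was at -1.68 ± 0.53 and Prom1 at 1.01 ± 0.27 (limma adjusted p = 0.637 and 0.607), and without knockout 3 Hao2 was at -0.98. The median of this list was -0.19 without both distant libraries. Male-biased genes had a median of 0.13 (0.36 without control 1), with 0 of 8 called, and C8b and C6 at 0.76 ± 0.26 and 0.77 ± 0.36 (limma adjusted p = 0.637 and 0.662). Without knockout 3 these were 0.48 and 0.34.

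Markers of other cells and of inflammation also read differently in the 2 genotypes. Summed over the 13 neutrophil markers, the level was 8.46 to 18.2 FPKM in the controls and 39.9 to 363.5 FPKM in the knockouts, and over the 13 macrophage markers 467.6 to 761.7 FPKM and 885.7 to 2192 FPKM. The median log2 fold changes were 2.48 over the 5 neutrophil markers tested and 0.89 over the 13 macrophage markers. Without knockout 3 they were 1.65 and 0.52. The filter of 1 FPKM is on the mean of all 6 libraries, so neutrophil markers could pass it through the knockouts alone. No marker of either list was at 0 in every library. Of 25 acute phase genes 25 had positive fold changes (median 1.31, and 0.72 without knockout 3), against 6483 of 9818 tested genes. Their median difference from the control mean was 0.85, 0.84 and 2.42 in knockouts 1, 2 and 3. Hepatocyte markers had a median log2 fold change of -0.38 (-0.13 without both distant libraries), with 10 of 11 negative, against 3335 of 9818 tested genes. The hepatocyte markers summed to 63329 to 95277 FPKM in the controls and 52301 to 61760 FPKM in the knockouts. FPKM depends on the library total, and the 25 acute phase genes summed to 12240 to 13720 FPKM in the controls and 18706 to 61749 FPKM in the knockouts. In whole liver, fewer hepatocytes, less of these marker transcripts per hepatocyte and a larger share taken by other transcripts cannot be told apart. Circadian clock genes had a median of -0.44, with 8 of 16 tested genes separate and lower, a pattern of 2.94% of all tested genes. Without control 1 that share of all tested genes was 14.6%, but fewer libraries also separate more easily. Markers of lymphocytes, stellate cells, endothelial cells and cholangiocytes had medians of 0.31, 0.34, 0.20 and 0.52, and that of endothelial cells was -0.34 without control 1 and that of cholangiocytes, with 2 tested genes, 0.01 without knockout 3. In these lists 0 genes passed limma, and their part in the sulfotransferase values was not tested. For the 5 tested neutrophil markers the median difference from the control mean was 0.07, 0.07 and -0.29 in controls 1, 2 and 3. It was 1.15, 1.53 and 3.98 in knockouts 1, 2 and 3. For the 8 sulfotransferase genes the median was -0.64, -0.78 and -0.91 in knockouts 1, 2 and 3. A link between the lists was not tested.

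**Figure D4:**
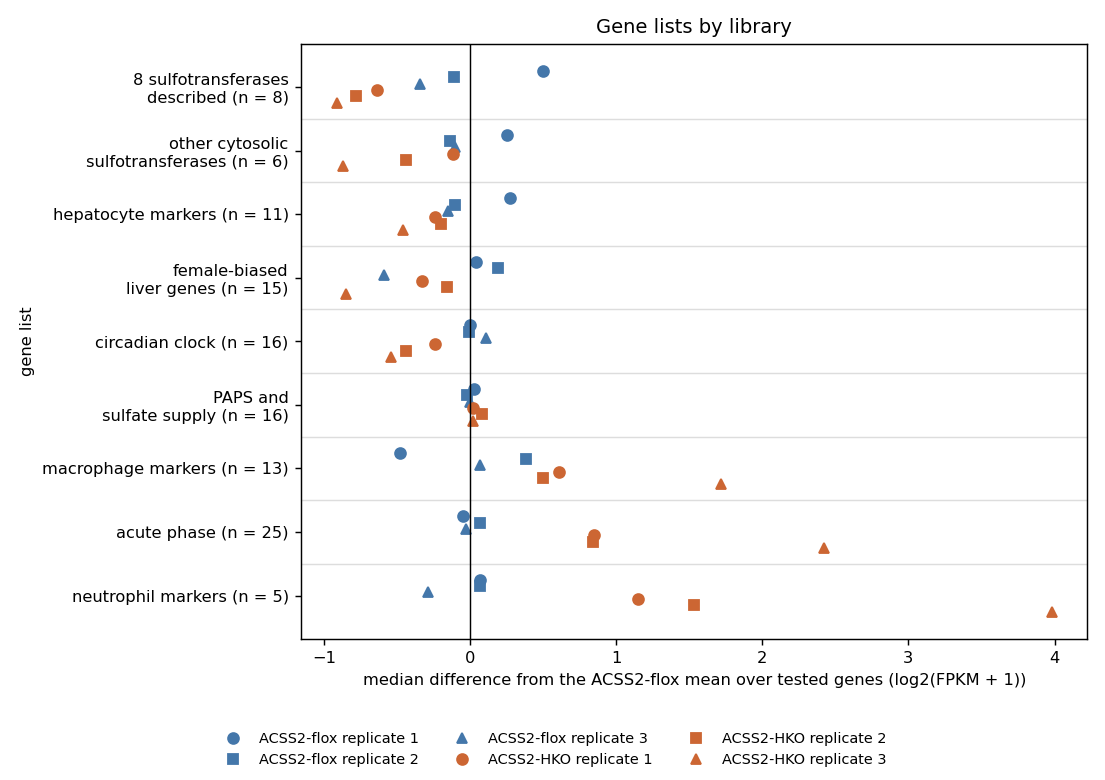
Median difference of each library from the ACSS2-flox mean (x axis, log2(FPKM + 1)) for the gene lists named on the y axis, with the number of tested genes in brackets (points are libraries). The 8 sulfotransferase genes read -0.64 to -0.91 in ACSS2-HKO, while neutrophil markers reach 3.98 and PAPS and sulfate supply genes stay between -0.02 and 0.08.

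Sult3a1 had the largest standard deviation over the 6 libraries (1.16 on the log2 scale). The 5 other tested genes whose levels followed it most closely were Prodh2 (r = 0.984), Gk (0.984), Cyp2c68 (0.983), Pdcd2 (0.982) and Fam214a (0.977), by Pearson correlation over 6 libraries. These are the highest of 9810 genes compared, the libraries share genotype and composition, and no p is given. Cyp2c68, a cytochrome P450 gene, read 480.3, 328.8 and 285.7 FPKM in the controls and 287.7, 299.8 and 198.6 FPKM in the knockouts. Like Sult3a1, it was highest in control 1 and lowest in knockout 3, the libraries that stood apart. Since Cyp2c68 was picked for following Sult3a1, nothing is read from this likeness.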

How the data were processed

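The authors deposited 1 FPKM value per gene and library, computed by them for 6 mouse liver libraries. Per the labels' protocols, total RNA was made into libraries with a VAHTS Universal V6 kit. The build mm10 and the tool DESeq2 are named, without a role, per the submitters' processing notes. For the aligner, counter, annotation, filters and strand setting, nothing is given in the sources used here. Whole gene lengths and library totals were searched that turn the values into whole fragments (tolerance 0.01), which succeeded for 14854 of the 14855 genes above 0 in 3 or more libraries. The search was tested on simulated data. The test was tried on simulated counts without libraries that stood apart, which does not show how it performs on these libraries.

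The 9818 genes averaging 1 FPKM or more were fitted as log2(FPKM + 1) with limma 3.58.1 in R 4.3.3 (trend in eBayes, two-sided, Benjamini-Hochberg adjustment over all tested genes, threshold 0.05). The exact test over samples was not used, because 3 against 3 libraries cannot go below p = 0.1. The genes and lists were chosen with earlier results of these data known. Named beside the 8 genes are Acss2, the other family members, Papss1, Papss2, the Y-linked genes and, of each related list, up to 4 genes past the threshold and the 2 of smallest p; 1 such gene is not reported here. The alternatives were other pseudocounts, filters and scalings, voom on the fragments, a gene length correction, blocking on replicate number, and dropping single libraries. Positions and transcripts are from GENCODE M21 (GRCm38), and promoters from RefSeq (GRCm38.p6), where all 8 genes matched by gene ID. Identity was computed on coding sequences with Biopython 1.88, in place of proteins, which were not used here.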

Additional observations from a re-analysis of the deposited data

How the results depend on the processing

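No gene passed the adjusted threshold as reported, and the same held under 9 of 10 changes of pseudocount, filter, scaling, model or covariate. With the replicate number as a block, 1 gene was called higher and 3 lower (Ifi27l2b, and Hamp2, Mup2 and Upp2), none of them a sulfotransferase gene. Same-numbered libraries deviated from their group means with correlations of 0.01, 0.00 and -0.06 over all tested genes. Such correlations cannot show whether same-numbered libraries shared a batch. With single libraries left out, 0 to 3 genes were called higher and 0 lower. The 3 (Ifi27l2b, Ly6d and Smpd3) appeared without knockout 2. The median log2 fold change of the 8 genes lay between -0.88 and -0.64 with single libraries left out and was -0.41 without both control 1 and knockout 3. The cause was not tested. It was -0.51 with a pseudocount of 5. As deposited, genes with higher means in the knockouts made up 80.3% of those with an unadjusted limma p under 0.05, against 55.1% with median-ratio scaling, 52.3% with quantile normalization and 52.1% without control 1. Median-ratio scaling moved the median of all tested genes from 0.10 to -0.01 and that of the 8 genes to -0.93. The fold changes of Sult1b1, Sult1c2, Sult1d1, Sult2a8, Sult3a1 and Sult5a1 were negative in every alternative in which they were tested, that of Sult1a1 in 15 of 17 and that of Sult1e1 in 4 of 16. The count of the 8 genes with separate groups, 4 as reported, was 5 after rescaling to TPM, by median ratios and by quantiles, where 2.33%, 6.75% and 7.31% of all tested genes had that pattern (2.94% as reported). It was 4 to 6 with single libraries left out, against 3.46% to 14.6% of all tested genes, the highest share without control 1. It was 4 without both distant libraries, where 17.7% of all tested genes had that pattern. Fewer libraries separate more easily, so shares with libraries left out cannot be set against the 2.94% of all 6. These alternatives for the count were chosen after seeing the data.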
